A study of Homo sapiens with 12 samples.

Results

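The genes described here are 10 genes of the intestinal microvillus: VIL1, EZR, MYO1A, PLS1, ESPN, EPS8, CDHR2, CDHR5, USH1C and ANKS4B. They were chosen by function, as actin bundlers, membrane linkers and tip link genes of the brush border, and each was matched to 1 of the 63036 identifiers of the table. The set was put together when VIL1 was already known to be lower in HCT15 cells overexpressing RNF26, so values of these genes in that comparison are given as a description and without a p-value. The data are poly(A) RNA sequencing of HCT116 and HCT15, established human colorectal carcinoma lines, each as control cells (HCT116_con, HCT15_con) and as cells overexpressing RNF26 (HCT116_ov_RNF26, HCT15_ov_RNF26), with 3 libraries in each of 4 groups. RNF26 is a membrane-bound ubiquitin ligase of the endoplasmic reticulum. The labels do not say how RNF26 was introduced, what the controls carried, whether a line was a clone or a pool, or whether replicates came from different cultures. The p-values therefore reflect the spread among these libraries, which may be technical. Levels are TPM, transcripts per 1000000, which is per transcript length and can be compared between genes, but the number of reads behind a value is unknown.

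Absorptive cells of the gut carry an apical brush border of densely packed microvilli. Each microvillus has a core of parallel actin filaments bundled by villin, plastin and espin, a membrane held to that core by ezrin and a class I myosin, and protocadherins at its tip that link it to its neighbours through a scaffold of harmonin and its partners. Villin is used as a marker of intestinal epithelium and of carcinomas that arise from it, and colorectal lines differ in how far they build microvilli.

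Levels of RNF26 followed the labels in both lines, at 16.8 ± 1.44 and 296 ± 39.4 TPM in HCT116 control and RNF26 libraries and at 27.0 ± 0.762 and 54.2 ± 0.562 TPM in HCT15 (SD, n = 3 each; two-sided exact permutation p = 0.10 in each line, the smallest that 3 against 3 allows). The epithelial markers EPCAM and KRT8 were abundant in every library, with EPCAM between 192.91 and 571.68 TPM, while the colon factor CDX1 was at 0.07 TPM or less in all of them. Of the same list KRT18, KRT19 and CLDN7 were at 79.00 TPM or more everywhere, KRT20 at 1.54 TPM or less and LGALS4 at 1.81 TPM or less. In HCT116 and HCT15 controls CDH1 averaged 6.97 and 73.2 TPM, and KRT20 1.27 and 0.0233 TPM. These genes are named after their values were seen. Endothelial markers summed to at most 1.05 TPM and fibroblast markers to at most 2.94 TPM, with PDGFRA, DCN and LUM at 0. Of 8 immune markers 6 were under 1 TPM in every library, and the exceptions were CD68 and, in HCT15, CD14. Mitochondrial transcripts made up 16.4% to 25.9% and ribosomal protein mRNAs 17.5% to 24.3% of TPM in HCT15 controls, against 18.4% to 19.2% and 26.3% to 27.5% in HCT15 RNF26 libraries. The part of these shares in the results below was not tested beyond the rescaled values given.

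The lines used different parts of the set. Ordered by mean TPM in HCT116 controls, the set ran EZR, EPS8, PLS1, ESPN, USH1C and VIL1, and in HCT15 controls EZR, VIL1, EPS8, PLS1, ESPN and CDHR5. EPS8 and PLS1 were next to each other and close: from 27.97 to 29.66 and from 26.83 to 28.41 TPM in HCT116 controls, and from 19.73 to 23.85 and from 17.57 to 21.33 TPM in HCT15 controls, so their ranges overlapped in both lines. MYO1A, CDHR2, CDHR5 and ANKS4B stayed under 1 TPM in all 12 libraries. They did not reach the level needed for testing, which was 1 TPM in at least 3 libraries, so 6 of the 10 genes were tested. VIL1 and USH1C passed that level through 1 line only.

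**Figure D1:**
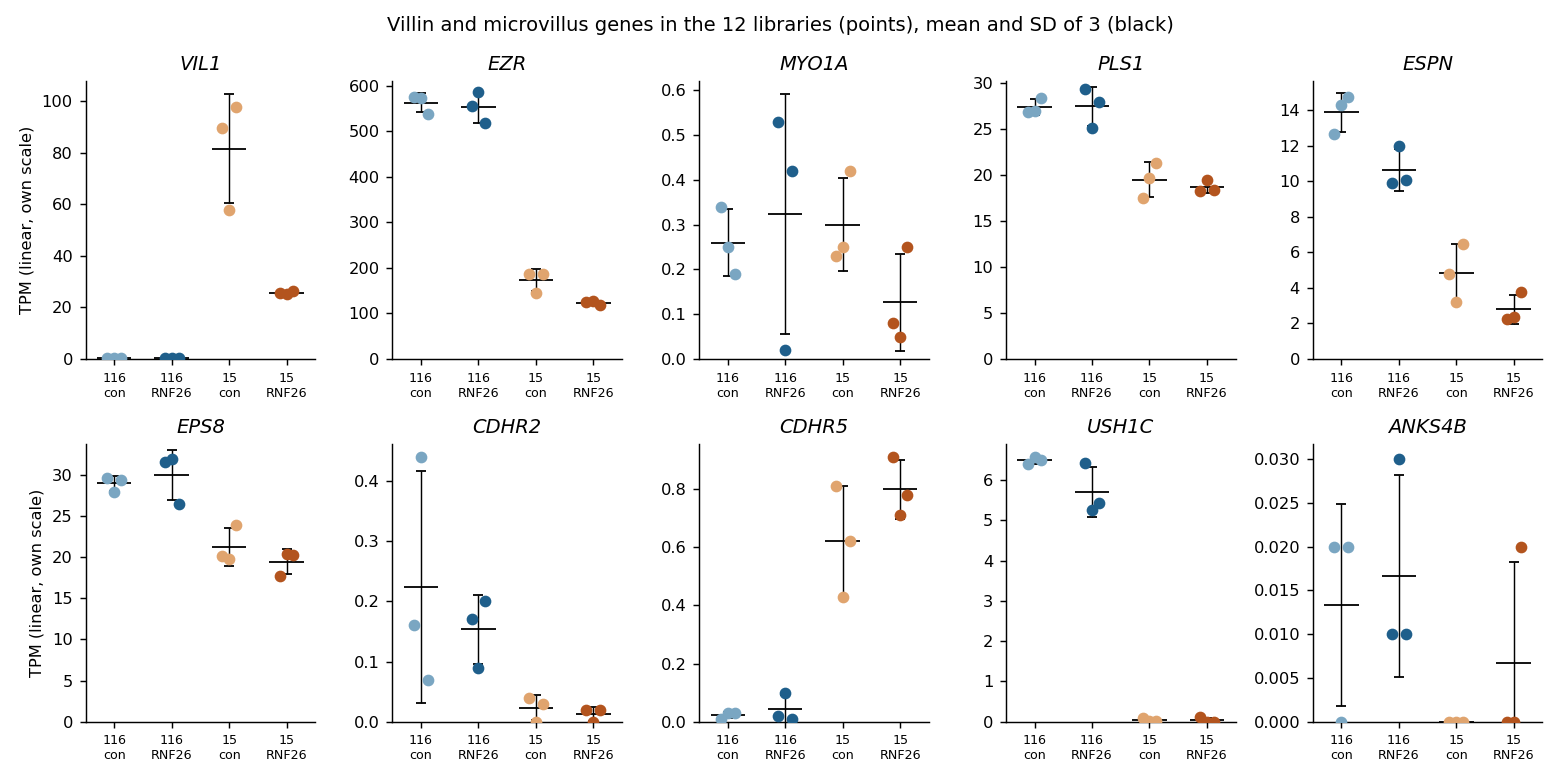
TPM of each of the 10 genes (y axes, linear and scaled per gene) in the 4 groups (x axis); points are libraries, black lines the mean and SD of 3. VIL1 lies between 25.38 and 97.70 TPM in HCT15 and under 1 TPM in HCT116, and USH1C between 5.25 and 6.56 TPM in HCT116 and at 0.11 TPM or less in HCT15.

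VIL1 encodes villin, which bundles, caps and, at high calcium, severs actin filaments. The gene (ENSG00000127831, GRCh38 chromosome 2, plus strand, 218419092 to 218453295) overlaps USP37 on the opposite strand. The sources used here do not give whether reads were counted by strand, so overlapping genes may share reads. In HCT116 controls it was at 0.37, 0.55 and 0.45 TPM, and in HCT116 RNF26 libraries at 0.51, 0.39 and 0.32 TPM. In HCT15 controls it was at 89.56, 57.82 and 97.70 TPM, and in HCT15 RNF26 libraries at 25.60, 25.38 and 26.38 TPM. The lines did not overlap at all, and within HCT15 the RNF26 libraries sat close together below a control group whose replicate 2 was the lowest. Among the 15584 tested genes of a library VIL1 ranked between 1074 and 1989 in HCT15 controls, between 3493 and 3837 in HCT15 RNF26 libraries, and at 14220 or below in HCT116.

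The line difference of VIL1 was present in both arms, which share no library. Its log2 difference, HCT15 minus HCT116, was 5.79 in controls and 4.25 in RNF26 libraries (SE 0.160 each). VIL1 reached the level for testing through HCT15 alone, so this difference was bound to be large and is given with no p-value. As a ratio of mean TPM this is 179-fold in controls and 63.4-fold in RNF26 libraries. These ratios divide by HCT116 means of 0.457 and 0.407 TPM, where the number of reads is unknown, so their size is uncertain. Differences here and below are from limma, run on log2(TPM + 1), a scale that understates changes of low genes, with Benjamini-Hochberg adjustment over all tested genes and a threshold of 0.05.

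In HCT15 the mean VIL1 level was 81.7 TPM in controls and 25.8 TPM in RNF26 libraries, a ratio of 3.17 and a log2 difference of -1.59 (SE 0.160), where the median of all tested genes was -0.166. The value was -1.82 without control replicate 2 and -1.45 without control replicate 3, which had the highest VIL1 level. That library held 25.9% mitochondrial and 17.5% ribosomal protein mRNA, against 17.7% and 21.8% in control replicate 1 and 16.4% and 24.3% in replicate 2. The difference was between -1.28 and -1.38 with median-ratio scaling or once GC content and length of transcripts were corrected for. A ratio within a library does not depend on the scaling of that library. VIL1 divided by EZR was 0.479, 0.399 and 0.521 in HCT15 controls and 0.206, 0.199 and 0.223 in RNF26 libraries. Divided by EPCAM, the epithelial adhesion gene, it was 0.157, 0.106 and 0.178 against 0.0474, 0.0451 and 0.0479, and divided by KRT8, a keratin of simple epithelia, 0.0393, 0.0298 and 0.0501 against 0.0161, 0.0171 and 0.0165. Divided by the actin gene ACTB, which was itself lower with RNF26, it was 0.0741, 0.0530 and 0.0945 against 0.0410, 0.0438 and 0.0438. The arms did not overlap for any of these 4 ratios, and the gap was narrowest for ACTB. EZR and KRT8 also had lower means with RNF26, at 123 against 173 TPM and at 1559 against 2057 TPM. VIL1 was already known to be lower here, so the ratios describe that fall and are no test of it. In bulk RNA, fewer villin-positive cells and less VIL1 mRNA per cell cannot be told apart.

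**Figure D2:**
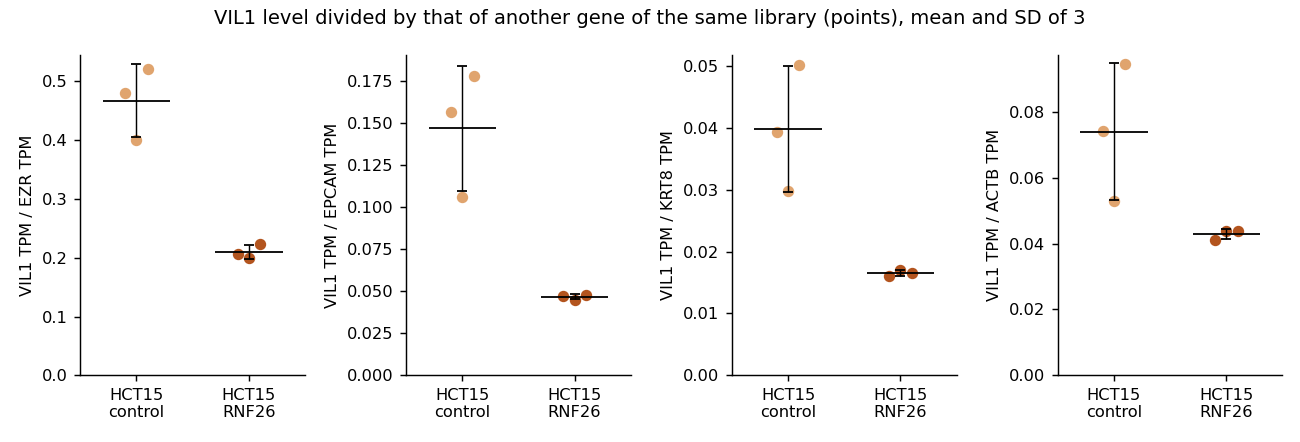
VIL1 TPM divided by the TPM of EZR, EPCAM, KRT8 or ACTB of the same library (y axes, no unit) in HCT15 control and RNF26 libraries; points are libraries, black lines the mean and SD of 3. All 3 RNF26 libraries lie below all 3 controls in each panel, with means of 0.466 and 0.209 for EZR and of 0.0739 and 0.0429 for ACTB.

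In HCT116, RNF26 and control libraries overlapped for VIL1 (log2 difference -0.0508, 95% interval -0.40 to 0.30, limma adjusted p = 1.00). At this level of under 1 TPM the interval on the log2(TPM + 1) scale says little about fold changes.

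EZR encodes ezrin, which ties the microvillus membrane to the actin core, and was the most abundant gene of the set in every library. It lies on chromosome 6, minus strand, from 158765741 to 158819412 (ENSG00000092820), with the antisense gene EZR-AS1 across it. It was at 575.74, 571.97 and 538.05 TPM in HCT116 controls and at 554.64, 585.28 and 516.89 TPM in HCT116 RNF26 libraries, which overlapped. In HCT15 it was at 186.99, 144.98 and 187.37 TPM in controls and at 124.15, 127.58 and 118.15 TPM in RNF26 libraries, with no overlap. EZR was thus highest in the line with almost no VIL1. The HCT15 minus HCT116 difference was -1.70 in controls (log2, SE 0.0944, limma adjusted p = 2.60e-08) and -2.15 in RNF26 libraries (SE 0.0944, adjusted p = 3.65e-09). Between the HCT15 arms it was -0.48 (SE 0.0944), but -0.26 with median-ratio scaling and -0.21 after the GC and length correction.

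Ezrin has close relatives in radixin (RDX) and moesin (MSN), which link actin to the membrane in the same way. MSN averaged 71.8 ± 2.90 TPM in HCT116 controls and 68.0 ± 5.31 TPM in HCT116 RNF26 libraries (SD, n = 3 each). In HCT15 controls it was listed at 0.02, 0.08 and 0.00 TPM and in HCT15 RNF26 libraries at 0.00, 0.01 and 0.03 TPM. The HCT15 minus HCT116 difference of MSN was -6.14 in controls and -6.09 in RNF26 libraries (log2, SE 0.0791 each), with no p-value, since MSN reached the level for testing through HCT116 alone. RDX averaged 97.4 and 43.1 TPM in HCT116 and HCT15 controls and is named here after its values were seen. Each member of the ezrin family thus had a lower mean in HCT15 controls than in HCT116 controls.

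To show the start regions of genes with such different levels, the 250 bases before the first RefSeq start of 4 genes are given (GRCh38.p14, read 5' to 3' on the strand of the gene, CpG dinucleotides in capitals). EZR is the most abundant gene of the set, at chr6:158818236-158818485, USH1C was above 1 TPM in HCT116 only, at chr11:17544417-17544666, and CDHR2 and MYO1A were under 1 TPM everywhere, at chr5:176542261-176542510 and chr12:57051199-57051448.
EZR: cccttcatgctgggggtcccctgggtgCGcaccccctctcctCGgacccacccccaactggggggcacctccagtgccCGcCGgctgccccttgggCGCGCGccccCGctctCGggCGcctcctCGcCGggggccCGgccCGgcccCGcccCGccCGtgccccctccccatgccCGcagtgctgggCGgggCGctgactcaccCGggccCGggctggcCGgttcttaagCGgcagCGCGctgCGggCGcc
USH1C: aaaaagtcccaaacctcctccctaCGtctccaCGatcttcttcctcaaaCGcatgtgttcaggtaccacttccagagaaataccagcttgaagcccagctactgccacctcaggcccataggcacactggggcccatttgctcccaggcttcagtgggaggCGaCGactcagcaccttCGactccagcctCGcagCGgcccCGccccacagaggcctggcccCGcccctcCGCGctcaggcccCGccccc
CDHR2: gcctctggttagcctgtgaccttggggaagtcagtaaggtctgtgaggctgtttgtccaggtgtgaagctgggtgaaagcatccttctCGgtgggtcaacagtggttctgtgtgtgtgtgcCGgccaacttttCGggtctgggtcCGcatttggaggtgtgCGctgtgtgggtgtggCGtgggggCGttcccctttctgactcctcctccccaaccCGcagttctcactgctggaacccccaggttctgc
MYO1A: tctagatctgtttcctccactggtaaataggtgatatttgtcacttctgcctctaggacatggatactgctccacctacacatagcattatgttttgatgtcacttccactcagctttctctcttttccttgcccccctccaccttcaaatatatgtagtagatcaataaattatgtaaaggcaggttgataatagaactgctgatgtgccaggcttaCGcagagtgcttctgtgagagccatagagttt
These windows hold 28 CpG in EZR, 13 in USH1C, 8 in CDHR2 and 1 in MYO1A, where the median over 35116 start regions of the same length was 11 (quartiles 3 and 23). The RefSeq table held starts for 6 of the 10 genes. The letters TTTAT, a core of the binding motif of CDX factors, were looked for on both strands and occurred 1 time in MYO1A and in none of the other 3 windows, while 32.7% of all start regions hold them. GTTAAT, one arm of the motif of HNF1 factors, was in none of the 4 windows and in 6.23% of all. Of the other 7 windows of the set, TTTAT was in start 2 of MYO1A and in starts 2 and 3 of PLS1, and GTTAAT in start 2 of CDHR2 and in the start of ANKS4B. These 7 windows held 15, 0 and 0 CpG in PLS1 and 2, 6 and 5 in start 2 of MYO1A, CDHR2 and USH1C. The start of ANKS4B, a gene at 0.03 TPM or less everywhere, held 4. A relation of CpG number to level was not tested. A match of letters is a description of the window and not a binding site.

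PLS1, ESPN and EPS8 encode the other proteins of the actin core. PLS1 encodes plastin 1, also called fimbrin, which packs filaments closely (ENSG00000120756, chromosome 3, plus strand, 142596387 to 142713664). It was at 26.83, 27.00 and 28.41 TPM in HCT116 controls, at 29.36, 25.18 and 27.98 TPM in HCT116 RNF26 libraries, at 17.57, 19.66 and 21.33 TPM in HCT15 controls and at 18.29, 19.51 and 18.35 TPM in HCT15 RNF26 libraries. The arms overlapped in both lines, and all HCT15 libraries lay below all HCT116 libraries. Its relative PLS3, also a plastin, was between 45.34 and 57.79 TPM over all libraries, and LCP1, the plastin of blood cells, was at 1.42 TPM or less.

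ESPN encodes espin, a bundler that lengthens microvilli and stereocilia (ENSG00000187017, chromosome 1, plus strand, 6424776 to 6461367). It overlaps TNFRSF25 on the other strand and has pseudogene copies of similar sequence, so its level is uncertain. It was at 12.64, 14.31 and 14.72 TPM in HCT116 controls and at 9.88, 12.01 and 10.06 TPM in HCT116 RNF26 libraries, without overlap. In HCT15 it was at 4.80, 3.22 and 6.50 TPM in controls and at 2.25, 2.39 and 3.75 TPM in RNF26 libraries, which overlapped. The HCT15 difference was -0.60 (log2, SE 0.199), -0.40 without control replicate 3 and -0.22 with the correction for GC and length. The median GC content of ESPN transcripts was 66.7%, the highest of the set.

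EPS8 encodes a protein of the microvillus tip that caps and bundles actin (ENSG00000151491, chromosome 12, minus strand, 15620158 to 15882329). It was at 29.66, 27.97 and 29.36 TPM in HCT116 controls and at 31.59, 31.89 and 26.50 TPM in HCT116 RNF26 libraries. In HCT15 it was at 20.17, 19.73 and 23.85 TPM in controls and at 17.73, 20.33 and 20.31 TPM in RNF26 libraries. The arms overlapped in both lines. In HCT15 the sign of the PLS1 and EPS8 differences depended on the scaling, at -0.0541 and -0.12 as deposited and at 0.16 and 0.0909 with median-ratio scaling. Neither gene separated the arms.

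The tip link genes were mostly silent. CDHR2 and CDHR5 encode the protocadherins that bridge neighbouring microvilli, and ANKS4B a scaffold that binds them. CDHR2 was at 0.16, 0.44 and 0.07 TPM in HCT116 controls and at 0.04 TPM or less in all 6 HCT15 libraries. CDHR5 showed the opposite order, at 0.10 TPM or less in all 6 HCT116 libraries, at 0.81, 0.43 and 0.62 TPM in HCT15 controls and at 0.91, 0.71 and 0.78 TPM in HCT15 RNF26 libraries. Each line therefore listed its higher value for a different one of the protocadherins, both at under 1 TPM. ANKS4B was at 0.03 TPM or less everywhere and at 0 in 6 libraries. MYO1A, the brush border myosin that tethers the membrane to the core, ranged from 0.02 to 0.53 TPM with overlap between the arms of both lines, and MYO7B, the motor of the tip link complex, reached at most 0.09 TPM. With so little signal none of these genes can be compared between arms.

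USH1C, which encodes the scaffold harmonin, was the tip link gene with the most mRNA in HCT116 (ENSG00000006611, chromosome 11, minus strand, 17493895 to 17544416). It was at 6.40, 6.56 and 6.50 TPM in HCT116 controls and at 6.42, 5.25 and 5.43 TPM in HCT116 RNF26 libraries. In HCT15 it was at 0.09, 0.03 and 0.03 TPM in controls and at 0.11, 0.00 and 0.00 TPM in RNF26 libraries. The lines did not overlap, and the order was the reverse of that of VIL1. The HCT15 minus HCT116 difference was -2.83 in controls and -2.69 in RNF26 libraries (log2, SE 0.101 each), with no p-value, since USH1C reached the level for testing through HCT116 alone. CALML4, a light chain of the tip link motor, averaged 5.91 and 2.71 TPM in HCT116 and HCT15 controls and is named after its values were seen.

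EZR, PLS1, ESPN and EPS8, the 4 genes above 1 TPM in both lines, were each lower in HCT15 than in HCT116, in controls and again in RNF26 libraries. Over all tested genes 43.6% were higher and 26.0% lower in HCT15 controls, and 34.1% were higher and 33.8% lower in HCT15 RNF26 libraries (limma, adjusted p under 0.05). The balance of all genes between control lines was 6790 higher and 4046 lower as deposited and 5473 higher and 5243 lower with quantile normalization. The smaller differences were those of PLS1, at -0.47 and -0.53 (log2, adjusted p = 2.90e-04 and 1.25e-04), and EPS8, at -0.44 and -0.60 (adjusted p = 0.00163 and 1.69e-04). ESPN was at -1.39 and -1.63 (adjusted p = 7.14e-05 and 1.97e-05). All 4 kept their direction and their call under every alternative run.

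Of the 6 tested genes, 0 differed between the HCT116 arms by limma at the adjusted threshold, and 0 had an unadjusted p under 0.05. Of all tested genes 0.00642% passed the adjusted threshold, which was RNF26 alone, and 657 had an unadjusted p under 0.05. The 95% intervals of the log2 difference were -0.23 to 0.18 for EZR, -0.18 to 0.18 for PLS1, -0.17 to 0.25 for EPS8, -0.39 to 0.06 for USH1C and -0.79 to 0.08 for ESPN. ESPN was the gene whose RNF26 libraries all lay below the controls (log2 difference -0.36, SE 0.199, limma adjusted p = 1.00, unadjusted p = 0.101), and 5.56% of all tested genes did so. In simulated data 91% of genes changed by 1 on the log2 scale and 44% of those changed by 0.5 were recovered in this comparison, so smaller changes could be missed. The simulation changed 100 genes by each size, all at levels well above that of VIL1 in HCT116. The adjusted threshold is easier to reach with many changed genes, so these shares may be too high for the set.

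In HCT15 31.2% of all tested genes were called lower and 5.39% higher by limma (adjusted p under 0.05). The libraries of VIL1 and EZR did not overlap between arms, RNF26 below control, which was so for 35.9% of all tested genes. Nothing is read from this about the set, since it was proposed on this comparison. The balance of all genes also moved with the scaling, from 840 higher and 4857 lower as deposited to 2242 higher and 2600 lower with median-ratio scaling.

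**Figure D3:**
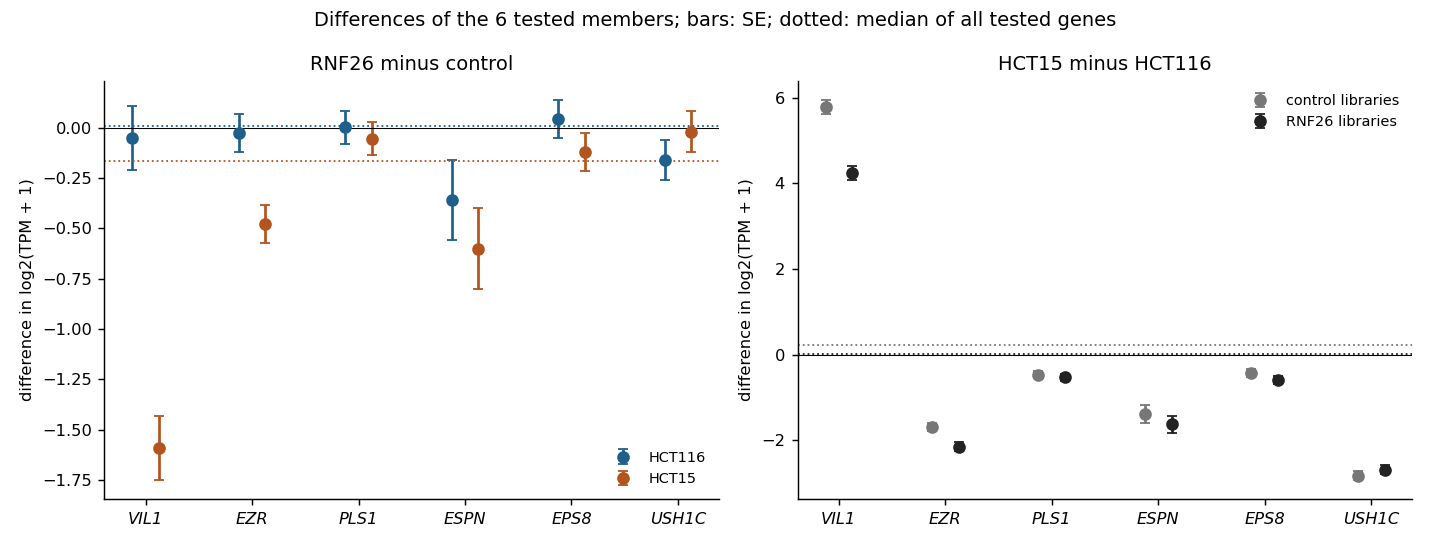
Differences in log2(TPM + 1) (y axis) of the 6 tested genes between arms of each line (left) and between lines in each arm (right); points are estimates, bars their SE and dotted lines the median of all tested genes. VIL1 is at -1.59 between HCT15 arms and at -0.0508 between HCT116 arms, and it alone is above 0 between lines.

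The wider machinery of the brush border was followed in 23 further genes of assembly, of which 20 were tested. This list and those below were chosen with earlier results of these data known, so their counts are a description. PACSIN2, which bends membranes at the base of microvilli, fell in HCT15 from 65.70, 58.71 and 62.33 TPM to 35.04, 37.92 and 34.75 TPM (log2 difference -0.78, SE 0.0708, limma adjusted p = 4.56e-05). NHERF1, a scaffold that binds ezrin, fell from 23.05, 19.20 and 18.79 TPM to 10.69, 11.06 and 11.42 TPM (-0.82, SE 0.0876, adjusted p = 8.85e-05). The actin nucleator gene COBL fell from a mean of 6.99 to 4.48 TPM (adjusted p = 8.35e-04). EPS8L2, a relative of EPS8, fell from 113 to 75.8 TPM (adjusted p = 0.00148), a call lost with the correction for GC and length (adjusted p = 0.0631, range over the alternatives 7.25e-04 to 0.0631). In all 13 fell, 0 rose and 7 did not pass, with a median of -0.439, against 31.2% called lower and a median of -0.166 over all genes. The number that fell was 7 with median-ratio scaling, 8 with quantile normalization and 6 after the GC and length correction. Over all genes 2600 of 15584, 2521 of 15584 and 2406 of 14849 were called lower under these settings, in the same order. In HCT116 limma called 0 of the 20, and 0 had an unadjusted p under 0.05.

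Between control lines these genes mostly ran with VIL1 rather than with the rest of the set. MISP, an actin-bundling gene of the microvillus base, averaged 9.52 ± 0.336 TPM in HCT116 and 57.3 ± 4.65 TPM in HCT15 (SD, n = 3 each), and MYO5B, the motor of apical transport, 18.8 ± 1.62 and 71.1 ± 7.04 TPM. EPS8L3, another relative of EPS8, averaged 0.200 ± 0.234 and 19.7 ± 3.00 TPM. The log2 differences of MISP and MYO5B were 2.47 and 1.87 (limma adjusted p = 2.14e-09 and 3.90e-09). EPS8L3 and BAIAP2L2, the latter named after its values were seen, reached the level for testing through HCT15 alone, so both had to be higher there. Of the 20 tested, 16 were higher and 3 lower in HCT15 controls, against 43.6% and 26.0% of all genes. In RNF26 libraries it was 13 higher and 3 lower, against 34.1% and 33.8%. The 20 include EPS8L3 and BAIAP2L2, whose direction was fixed in advance, so these counts are a description.

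Relatives of the set were followed in 19 genes, of which 14 were tested. In HCT15 4 fell, 0 rose and 10 did not pass, against 31.2% called lower and 5.39% higher over all genes (median -0.160, where that of all genes was -0.166), and in HCT116 limma called 0 of the 14, with 1 at an unadjusted p under 0.05. The actin bundler FSCN1 fell from 46.5 ± 0.961 to 24.5 ± 1.29 TPM, the class I myosin MYO1C from 69.2 ± 2.85 to 42.4 ± 3.34 TPM and the villin relative FLII from 165 ± 6.33 to 105 ± 8.16 TPM (SD, n = 3 each; limma adjusted p = 1.14e-04, 4.17e-04 and 7.47e-04). The actin-severing gene GSN was at 32.0 ± 4.56 and 22.3 ± 1.42 TPM (adjusted p = 0.00452), a call lost on median-ratio scaling (adjusted p = 0.0542), on quantile normalization (adjusted p = 0.0853) and with the correction for GC and length (adjusted p = 0.684; range over the alternatives 0.00125 to 0.684). VILL and AVIL, the closest relatives of villin by name, were at 3.06 TPM or less except for 1 HCT116 RNF26 library in which AVIL was at 8.79 TPM, both named after their values were seen.

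The enzymes and transporters that a mature brush border displays were almost absent, and 18 of 21 did not reach the level for testing. The sugar-splitting enzymes SI and LCT were at 0.02 and 0.08 TPM or less in every library. Of the 3 tested, the membrane mucin MUC13 fell in HCT15 from 2.51, 2.54 and 3.06 TPM to 1.23, 1.79 and 1.69 TPM (limma adjusted p = 0.00508). The peptidase gene ENPEP was at 1.39, 1.27 and 1.55 TPM in HCT15 controls and at 1.99, 1.87 and 2.05 TPM in HCT15 RNF26 libraries (adjusted p = 0.0499, a call that ended under 15 of 22 alternatives, range 0.00996 to 0.181). The peptidase gene DPP4 did not pass (adjusted p = 0.680).

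Transcription factors of intestinal identity fell in HCT15. KLF5, a factor of crypt cells, fell from 57.31, 74.30 and 65.32 TPM to 27.98, 29.32 and 27.12 TPM (log2 difference -1.19, SE 0.107, limma adjusted p = 4.40e-05). CDX2, a factor of intestinal identity known to act on brush border genes, fell from 30.57, 22.84 and 34.25 TPM to 13.03, 7.07 and 12.50 TPM (-1.37, SE 0.203, adjusted p = 4.79e-04). GATA6 fell from a mean of 7.62 to 3.14 TPM and HNF4A, a nuclear receptor of enterocytes, from 5.25 to 2.49 TPM (adjusted p = 1.41e-04 and 2.29e-04). Of 12 listed factors 9 were tested and 9 fell, against 31.2% of all genes called lower. Their arms did not overlap, RNF26 below control, which was so for 35.9% of all tested genes. As the list was chosen with earlier results of these data known, this count is a description and no independent test. The number that fell was between 7 and 9 under all alternatives. Over all genes 2406 of 14849 were called lower after the GC and length correction. Of the factors named, CDX2 and GATA6 were lowest among controls in replicate 2, the library that was also lowest in VIL1, EZR and ESPN. KLF5 and HNF4A were highest in that library, and a link was not tested.

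In HCT116 limma called 0 of these 9 factors, and 1 had an unadjusted p under 0.05. CDX2 was at 5.69, 5.73 and 6.14 TPM in controls and at 4.15, 4.60 and 3.44 TPM in RNF26 libraries (log2 difference -0.44, SE 0.203, limma adjusted p = 1.00), and HNF4A averaged 1.42 and 1.04 TPM. The RNF26 effect differed between lines for 7 of the 9, all lower in HCT15, where 18.7% of all genes were called so. All 9 were higher in HCT15 than in HCT116 controls, as VIL1 was, where 43.6% of all genes were called higher. KLF5 averaged 8.87 and 65.6 TPM in HCT116 and HCT15 controls (limma adjusted p = 1.36e-09).

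**Figure D4:**
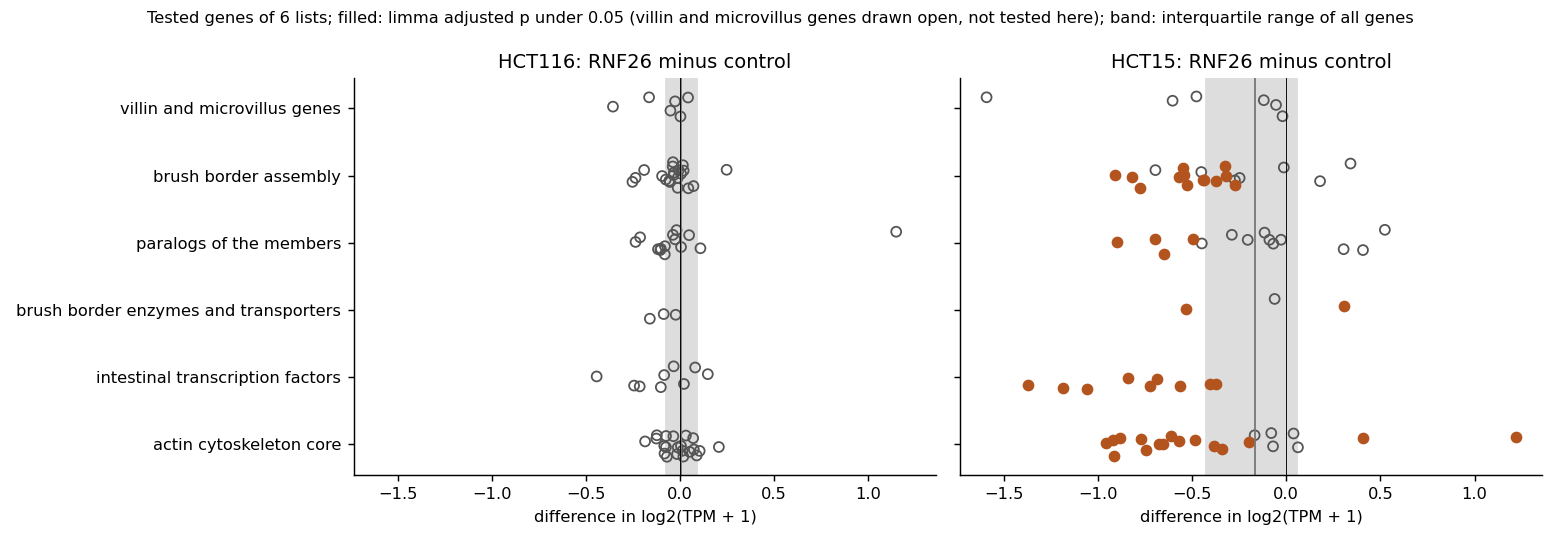
Differences in log2(TPM + 1) between RNF26 and control libraries (x axis) for tested genes of 6 lists (rows) in HCT116 (left) and HCT15 (right); filled points passed limma at an adjusted p under 0.05, the grey band is the interquartile range of all tested genes and the grey line their median; the villin and microvillus genes are drawn open. No point is filled in HCT116, and all 9 intestinal transcription factors are filled and below 0 in HCT15.

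Among 21 general actin genes, more were called lower than higher in HCT15. ACTB fell from 1111 ± 89.4 to 602 ± 22.2 TPM and the alpha-actinin gene ACTN4 from 172 ± 16.1 to 87.5 ± 2.97 TPM (SD, n = 3 each; limma adjusted p = 5.08e-05 and 6.12e-05). The adhesion gene VCL fell from 61.8 ± 1.72 to 38.4 ± 2.97 TPM (adjusted p = 6.32e-05). TMSB4X, which encodes an actin monomer-binding peptide, rose from 614 ± 125 to 1413 ± 77.7 TPM (adjusted p = 7.17e-05). Of 21 tested 14 fell, 2 rose and 5 did not pass, against 31.2% called lower and 5.39% higher over all genes. After the GC and length correction 8 fell, where 2406 of 14849 genes did over the whole table. The lower VIL1 level thus stood beside lower mRNA of actin itself, and the ratio of VIL1 to ACTB, given above, was lower too. In HCT116 limma called 0 of the 21, and 0 had an unadjusted p under 0.05.

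Over the 12 libraries the log2 levels most like those of VIL1, among 9987 genes with a mean of at least 5 TPM in a group, were those of FOXA1, TMEM30B, PKP2, TSC22D3 and STAT5A, with Pearson correlations of 0.9988, 0.9983, 0.9983, 0.9980 and 0.9979. These libraries fall into the lines, so the correlation mainly reads a gene that is high in HCT15, low in HCT116 and lower in HCT15 RNF26 libraries, and 167 genes exceeded 0.99. PKP2, a desmosome gene, was between 70.42 and 78.37 TPM in HCT15 controls, between 41.80 and 44.33 TPM in HCT15 RNF26 libraries and at 9.82 TPM or less in HCT116. FOXA1, a pioneer transcription factor, was between 8.61 and 11.86 TPM and between 5.16 and 5.79 TPM in the same HCT15 groups and at 0.82 TPM or less in HCT116.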

How the data were processed

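Poly(A) RNA was sequenced from 12 libraries. The authors deposited 1 table of TPM with 1 column per library, whose sums were close to 1000000. The tools fastp, HISAT2, RSEM and StringTie and the build GRCh38 are named per the submitters' processing notes. The annotation, versions and roles of these tools were not given in the sources used here. TPM keeps no depth, so no count model or counting interval was used. Columns were matched to samples, groups and replicate numbers by the sample titles.

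Symbols came from the gene name table (42372 of 63036 identifiers matched a symbol), positions, GC content and length from GENCODE 29 (GRCh38), and start regions from RefSeq. The 15584 genes with at least 1 TPM in at least 3 libraries were fitted with limma 3.58.1 in R 4.3.3 on log2(TPM + 1), with a mean per group (8 residual degrees of freedom, prior 3.09, mean-variance trend, two-sided). The fit was tested on simulated data. No 2 libraries held the same values.

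The 10 genes and all lists were chosen with earlier results of these data known. Named were the 10 genes, RNF26, up to 4 genes per list with the smallest p, and the 5 genes most like VIL1; others are said to be named after their values were seen. Alternatives were pseudocounts of 0.1 and 5, no filter or 5 TPM, median-ratio scaling (7524 genes), quantile normalization, leaving out mitochondrial and ribosomal protein genes, a spline correction for GC content and length (5 degrees of freedom, 95.3% of tested genes), a fit of the 6 libraries compared, a replicate block, no trend, and leaving out each library.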

Additional observations from a re-analysis of the deposited data

Results flagged for a closer look

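The RNF26 effect differed between the lines, by limma on the difference itself (HCT15 minus HCT116, log2, Benjamini-Hochberg adjusted), for several listed genes outside the set of 10. These genes were named for their small p in HCT15, which the difference contains, so the values describe them and are no independent test. Over all genes 18.7% were called lower in this difference, 2909 genes, and 1146 with median-ratio scaling. Among brush border assembly genes the difference was -0.68 for PACSIN2 (adjusted p = 0.00210), -0.77 for NHERF1 (0.00304), -0.53 for COBL (0.0146) and -0.59 for EPS8L2 (0.0172). Among relatives of the set it was -0.80 for FSCN1 (adjusted p = 0.00484), -0.74 for MYO1C (0.00602) and -0.53 for FLII (0.0272). Among intestinal transcription factors it was -1.10 for KLF5 (adjusted p = 0.00171), -1.02 for GATA6 (0.00399), -0.60 for HNF4A (0.0210) and -0.93 for CDX2 (0.0423). Among actin genes it was -0.95 for ACTB (adjusted p = 0.00131), -0.97 for ACTN4 (0.00172), -0.55 for VCL (0.00405) and 1.17 for TMSB4X (0.00241).

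RNF26 itself rose 17.6-fold in HCT116 and 2.01-fold in HCT15.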

How the results depend on the processing

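In comparisons of the lines EZR, PLS1, ESPN and EPS8 stayed called in the same direction under every alternative. In HCT116 0 were called under any of them; there EZR ranged from -0.0689 to 0.0206 (log2) without 1 library, EPS8 from -0.00243 to 0.13 and PLS1 from -0.0444 to 0.0625, and PLS1 was at -0.00646 with median-ratio scaling, -0.00982 with quantile normalization and -0.0356 after the GC and length correction. Counts of the set in HCT15 are a description, since it was chosen on that comparison: the number past the threshold was 3 as deposited, 2 or 3 without 1 library and 1 after the GC and length correction. For the difference between lines, which contains the HCT15 comparison, it was 2, between 1 and 2 without 1 library, and 1 with no filter, median-ratio scaling, quantile normalization, no mitochondrial or ribosomal protein genes, the GC and length correction, the replicate block or no trend. The cause was not tested. As deposited, 31.2% of all genes were called lower and 5.39% higher in HCT15, and 18.7% were called lower in the difference. After the GC and length correction 2406 of 14849 genes were lower and 1767 higher in HCT15, and 1013 lower in the difference. Of 15584 genes, 1146 were lower in the difference with median-ratio scaling and 1076 with quantile normalization. It was 2582 with the replicate block and 2750 with no trend. Without mitochondrial and ribosomal protein genes it was 1811 of 15487, and with no filter 1963 of 35454. Nothing is read from the counts of the set. The assembly genes that fell in HCT15 numbered 7, 8 and 6 with median-ratio scaling, quantile normalization and the GC and length correction. The actin genes that fell numbered 8 after that correction. The enzymes and transporters that fell numbered 0 with a filter of 5 TPM, where the gene that fell is no longer tested. Over all genes 2600 of 15584, 2521 of 15584, 2406 of 14849 and 4390 of 10700 were called lower in HCT15 under these settings, in the same order.

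Same-numbered libraries of the arms deviated together little (correlations of -0.042 to 0.014 in 5 pairs and 0.146 in HCT15 number 3). These are deviations from means of 3 libraries, so they cannot decide whether the numbers pair the samples, and the labels do not say. With the replicate block 1 member passed for the difference between lines in place of 2. With 3 libraries per group, low TPM values and an unknown depth limit what can be compared.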
